A study of Mus musculus with 20 samples.

Results

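The passage of a retinal progenitor into a neurogenic cell was described in postnatal day 2 (P2) control explants, as the difference between 2 cell types of the same library. The members are the 9124 cells, of 79009 in the whole series, that belong to the 4 P2 control libraries and that the authors typed as progenitors (5608 cells) or neurogenics (3516 cells). All retinas were cultured explants of CD1 wildtype mice, and for the P2 control group they carried, per the labels, a GFP control construct. Cells positive for GFP were isolated after papain dissociation and run on the 10x 3′ platform, so that only cells that took up and expressed the plasmid were sampled. The groups set beside the P2 controls were the 4 postnatal day 5 (P5) control libraries, which carried the same GFP control, and the 6 P2 libraries electroporated with MEIS1, with MEIS2 or with both (2 libraries each). The labels do not say whether libraries came from separate animals, litters or cultures, so that p-values measure only the spread between these libraries.

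A retinal progenitor divides, holds Notch signalling active and expresses Hes and Id proteins, which block the basic helix-loop-helix (bHLH) proneural factors. When a progenitor produces a postmitotic daughter, proneural factors such as Neurog2 and Atoh7 rise for a short time, the daughter presents Delta ligands to its neighbours, and it leaves the cell cycle before it takes on a particular fate. Around birth in the mouse, the neurons still being made are mostly rods, bipolar cells and late amacrine cells, while the last progenitors go on to Müller glia.

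The labels contradict each other on which libraries these are. In P2 control 1 the cell barcodes carry the prefix of a library that the labels give as electroporated with both MEIS1 and MEIS2, and the prefixes in controls 2, 3 and 4 have other control numbers than the titles. Conversely, the barcodes in the second combination library carry a control's prefix. The 2 P2 libraries titled MEIS2 have MEIS1 in their treatment label. The series' design text names other transcription factors in the constructs, and gives 2 or 5 days of treatment where the sample labels give an age. Titles and the authors' sample column were followed here. The measured levels of the electroporated genes bear on this: in progenitors, Meis1 read 334, 179, 200 and 196 CPM (UMI counts scaled to a total of 1000000) in P2 controls 1 to 4, against 922 and 899.8 in the 2 combination libraries. Meis2 read 186, 134, 116 and 132 CPM in the controls and 618 and 926 in the combination libraries. P2 control 1 was thus the highest control for both genes and lay below both combination libraries. Plasmid GFP in progenitors, on the same scale, read 37154, 13825, 12845 and 45351 CPM in P2 controls 1 to 4. In the combination libraries it read 10167 and 3249 CPM, the second being the one with a control's prefix. In progenitors of the 2 libraries titled MEIS2, Meis1 read 268 and 284 CPM and Meis2 815 and 1580 CPM. In those of the 2 titled MEIS1, Meis1 read 2517 and 2197 CPM and Meis2 97.7 and 90.2 CPM.

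Per library, P2 controls 1 to 4 held 2482, 696, 1327 and 1103 progenitors and 1733, 448, 606 and 729 neurogenic cells. The UMIs (counted molecules) summed per type ran from 2502725 in the neurogenic cells of control 3 to 32084420 in the progenitors of control 1. A neurogenic cell held fewer UMIs than a progenitor of its library, with median ratios of 0.762, 0.79, 0.716 and 0.869. Pairs of P2 control libraries shared between 3 and 30 cell barcodes.

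The names of both types were checked against their markers. Of 10 progenitor markers, 10 were lower in the neurogenic cells, Sox2, Sox9, Lhx2, Pax6, Hes1, Hes5, Ccnd1, Fgf15 and Slc1a3 among them. Of 10 neurogenic markers, 8 were higher there (Atoh7, Neurog2, Olig2, Btg2, Gadd45a, Dll1, Dll3 and Neurod1), and 2 were not called, Hes6 among them. Some defining genes of other cells were near absent from both types: the rod transducin gene Gnat1 averaged 0.714 CPM in progenitors and 0.704 in neurogenic cells, the bipolar genes Vsx1 and Grm6 were at 0, and the ganglion cell gene Pou4f2 averaged 0.0201 and 0.0131. Others were present: the rod arrestin gene Sag had means of 45.7 and 56.7 CPM, and 9 of 15 genes of rod and cone function and 13 of 16 amacrine and horizontal factors passed the filter on low counts. The glial gene Rlbp1 and the bipolar and ganglion cell factor Isl1, also present, are described below. The types are clusters that the authors drew from expression itself, and how they were named is not given in the sources used here. Genes that separate the clusters therefore had to differ, and the p-values below say how repeatable a difference was over 4 libraries, not that the types differ.

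The step was broad. Of 12737 genes tested with edgeR on summed counts, with the library as a block, 6902 (54.2 percent) passed an adjusted p of 0.05: 3566 (28.0 percent) were higher in neurogenic cells and 3336 (26.2 percent) were lower. In 3200 genes (25.1 percent) the 4 neurogenic values lay wholly above or wholly below the 4 progenitor values. Every count of members below is to be read against these shares, and every list median against that of all genes tested, a log2 fold change of 0.04. The plot of gene lists shows the shift of each list.

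**Figure D1:**
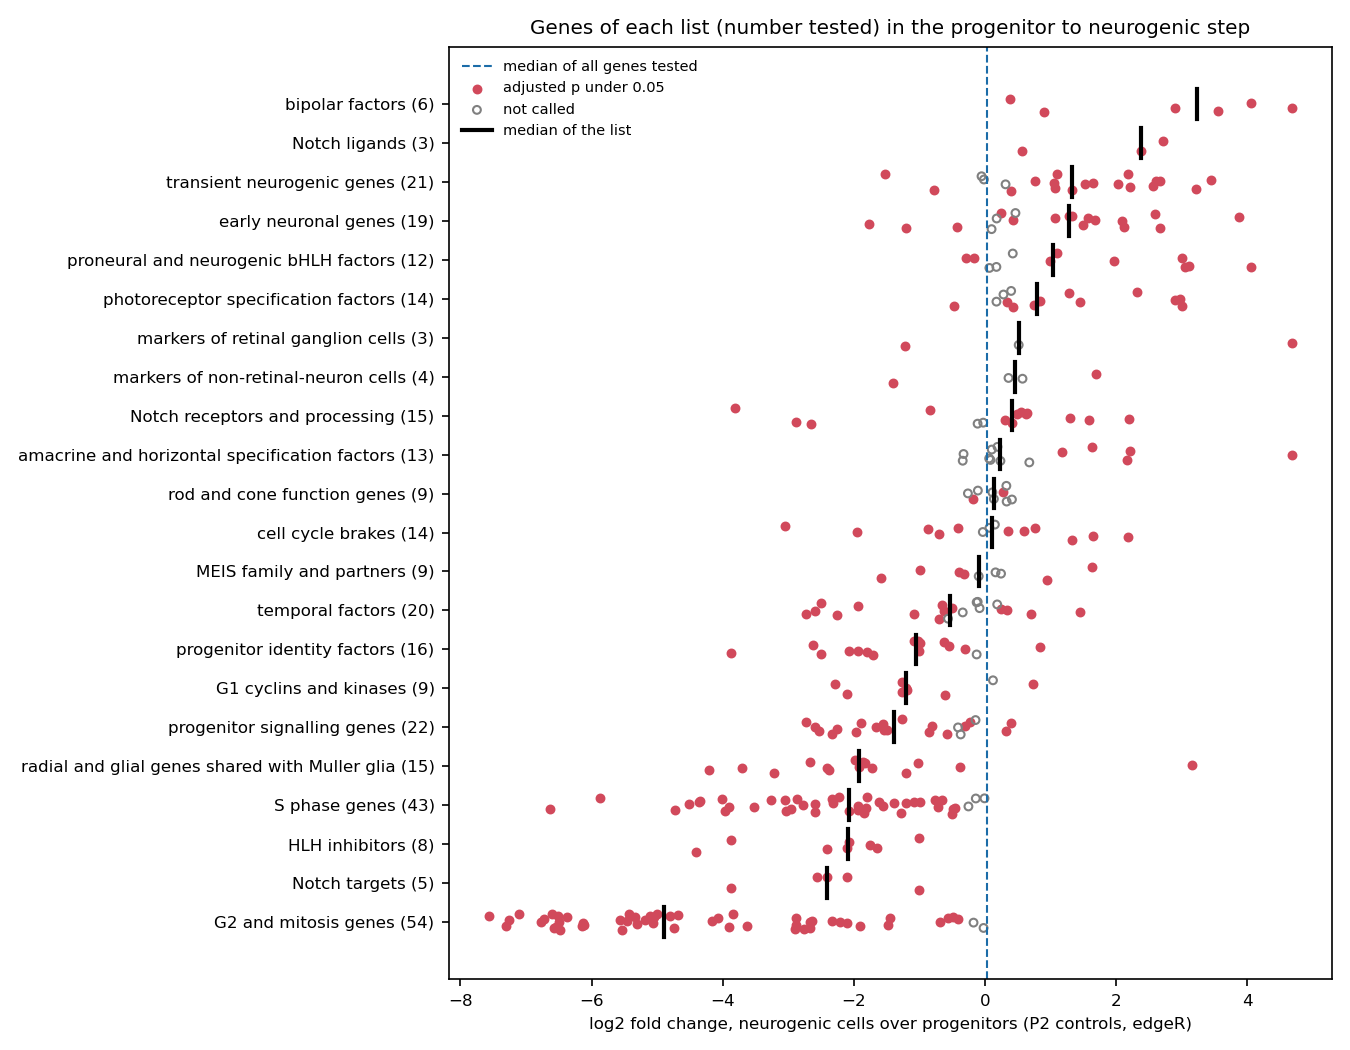
Each point is 1 gene of a list, placed by its log2 fold change (neurogenic cells over progenitors, P2 controls); filled points passed an adjusted p of 0.05, open points did not, black bars mark list medians and the dashed line the median of all genes tested. G2 and mitosis genes lie lowest, at a median of -4.90, and bipolar factors and Notch ligands highest, at 3.23 and 2.38.

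Notch pathway genes moved in opposite directions by role. Of 5 ligands, 3 passed the filter on low counts and 3 were higher in neurogenic cells, while Jag1 and Jag2 lay below the filter at means of at most 1.71 CPM. Dll3, a divergent Delta protein, measured 22.2, 20.3, 20.9 and 16.6 CPM in the progenitors of controls 1 to 4 and 134, 124, 129 and 139.98 CPM in their neurogenic cells. The groups did not overlap, and the spread within each type was small beside the gap; the largest step was that of control 4. The log2 fold change of Dll3 (chr7:28293553-28302238 on mm10) was 2.72 ± 0.10 (SE, edgeR adjusted p = 5.60e-09). Dll4 measured 6.45, 7.11, 12.7 and 4.96 CPM in progenitors and 27.8, 52.3, 38.6 and 49.04 CPM in neurogenic cells, a log2 fold change of 2.38 ± 0.21 (SE, edgeR adjusted p = 4.62e-06). Dll1, the ligand that is classically paired with proneural factors, changed little by comparison: 32.7, 73.6, 75.8 and 41.6 CPM against 47.03, 75.4, 107 and 90.9 CPM, with overlapping groups and a log2 fold change of 0.56 ± 0.14 (SE, edgeR adjusted p = 0.00516).

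The promoters of Dll3 and of Gadd45g, a stress and differentiation gene described below, are printed because they hold the E-box CAGCTG, a palindrome to which proneural bHLH dimers bind. Each is the run of 120 bases before the RefSeq start site (build GRCm38.p6), 5′ to 3′ on the gene's own strand, with the E-box in capitals. Dll3 lies on the minus strand (chr7:28301786-28301905) and Gadd45g on the plus strand (chr13:51846555-51846674). The RefSeq start of Dll3 used here lies within the GENCODE interval of the gene given above.
Dll3: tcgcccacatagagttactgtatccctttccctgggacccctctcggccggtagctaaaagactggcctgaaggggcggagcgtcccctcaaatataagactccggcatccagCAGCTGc
Gadd45g: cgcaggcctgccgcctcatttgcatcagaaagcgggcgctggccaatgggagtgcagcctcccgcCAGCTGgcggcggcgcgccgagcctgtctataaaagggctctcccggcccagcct
Within 250 bases before a start, CAGCTG was found in 3 of 6 ligand promoters (50 percent) and in 7 of 28 promoters of transient neurogenic genes (25 percent), and in 13 percent of all 32851 RefSeq promoters. In the 16 promoters of 12 proneural genes it was found in 3 (18.8 percent). A second E-box searched, CAGATG, was found in 0 of 6 ligand promoters and 5 of 28 promoters of transient neurogenic genes (17.9 percent). It was in 2 of 16 proneural promoters (12.5 percent) and in 14.4 percent of all promoters. A match describes these letters only and shows no binding.

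Notch receptors fell while several modifiers rose. Notch2 measured 33.2, 43.1, 28.3 and 51.8 CPM in progenitors and 2.46, 3.08, 1.33 and 3.79 CPM in neurogenic cells, a log2 fold change of -3.81 ± 0.14 (SE, edgeR adjusted p = 6.57e-09). Notch3 (-2.66) and Notch1 (-0.83) were also lower, as was Lfng (-2.88), a glycosyltransferase that tunes receptor response to ligands. The related Mfng rose instead, from 32.95, 39.03, 31.1 and 30.8 CPM to 85.4, 83.8, 75.95 and 79.8 CPM (log2 fold change 1.30, edgeR adjusted p = 2.94e-07). Rises were also called for Numbl (2.19), whose relative Numb antagonises Notch, for the ligand-processing ubiquitin ligases Neurl1a (1.59) and Mib1 (0.62), and for Rbpj (0.64), the DNA-binding partner of cleaved Notch. Of the 15 genes in the list of receptors and processing, 9 were higher, 4 lower and 2 not called, with a median of 0.41.

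All 5 listed Notch targets were lower, with a median of -2.41. Hes1, a repressor of proneural genes, measured 160.4, 395, 881 and 415 CPM in progenitors and 12.99, 15.001, 70.6 and 28.1 CPM in neurogenic cells. Progenitors of control 1 had the lowest level and those of control 3 the highest, and no neurogenic value reached the lowest progenitor value. The log2 fold change of Hes1 (chr16:30064384-30067796) was -3.87 ± 0.14 (SE, edgeR adjusted p = 5.44e-09). Hes5, the other main Hes target in retina, was retained far more: 1133, 1337, 1746 and 539 CPM in progenitors and 977, 423, 859 and 245 CPM in neurogenic cells, with overlapping groups and a log2 fold change of -0.999 ± 0.17 (SE, edgeR adjusted p = 6.03e-04). Nrarp, a feedback inhibitor of the pathway, fell by 2.56 on the log2 scale, Hey2 fell by 2.41 and Hey1 fell by 2.10. The promoter of Hes5 (chr4:154960803-154960922, plus strand) is printed with the RBPJ element in capitals; the search took TTCCCAC and its reverse complement GTGGGAA.
Hes5: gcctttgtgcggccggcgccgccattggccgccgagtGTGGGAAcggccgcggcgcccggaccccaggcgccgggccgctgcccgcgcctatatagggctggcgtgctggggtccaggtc
This element was present in 2 of the 3 target promoters that the RefSeq table holds and in 5.42 percent of all promoters.

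The HLH inhibitors fell as a class. Of 8 genes, 8 were lower, with a median of -2.08; the list shares Hes1, Hes5, Hey1 and Hey2 with the Notch targets. Id3, which sequesters bHLH partners, measured 174, 249, 378 and 492 CPM in progenitors and 11.1, 5.38, 22.7 and 17.4 CPM in neurogenic cells. Every neurogenic value lay far below the lowest progenitor value, and the log2 fold change was -4.41 ± 0.17 (SE, edgeR adjusted p = 8.86e-09). Id1 fell by 1.75 on the log2 scale with overlapping groups.

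The proneural factors ranged from steep rises to genes that were lower or not called. Of 12 tested genes of the list, 7 were higher, 2 lower (the partner genes Tcf3, -0.29, and Tcf4, -0.16) and 3 not called, with a median of 1.05. The list's median within a library was 0.66, 1.12, 0.17 and 2.39 in controls 1 to 4, highest in control 4. Neurod4, which acts in bipolar, amacrine and photoreceptor precursors, measured 55.6, 66.9, 75.5 and 163 CPM in progenitors and 799, 1394, 1493 and 2250.1 CPM in neurogenic cells. The types did not overlap, and this was the steepest rise of the list, a log2 fold change of 4.06 ± 0.11 (SE, edgeR adjusted p = 2.78e-09) for a gene at chr10:130268152-130280240. Neurod1, which promotes photoreceptor survival and differentiation, measured 178, 115, 136 and 281 CPM in progenitors and 1066, 1240.4, 1028 and 2493 CPM in neurogenic cells, a log2 fold change of 3.01 ± 0.12 (SE, edgeR adjusted p = 9.67e-09). Atoh7, known for its need in ganglion cell genesis, measured 20.4, 14.4, 25.3 and 9.39 CPM and 121, 93.9, 140.4 and 265 CPM, a log2 fold change of 3.06 ± 0.30 (SE, edgeR adjusted p = 8.13e-06). Control 4 stood apart for Atoh7, with the lowest progenitor and the highest neurogenic value, and there its step exceeded that of Neurod4. Neurod2 (3.11) and Bhlhe22 (1.97), which are amacrine and bipolar factors, rose from progenitor levels of at most 19.7 CPM.

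Neurog2, a factor that starts the neurogenic programme, separated the types poorly. It measured 38.4, 43.1, 43.4 and 37.96 CPM in progenitors and 51.8, 83.8, 45.3 and 195 CPM in neurogenic cells, with overlapping groups and with control 4 far above the other neurogenic values. Its log2 fold change was 0.99 ± 0.29 (SE, edgeR adjusted p = 0.0126). Olig2 rose with overlapping groups (1.10 ± 0.26, edgeR adjusted p = 0.00455), and Hes6, an antagonist of Hes1, was not called (0.18 ± 0.15, edgeR adjusted p = 0.347). The plot of levels by library shows these genes beside those that separate.

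**Figure D2:**
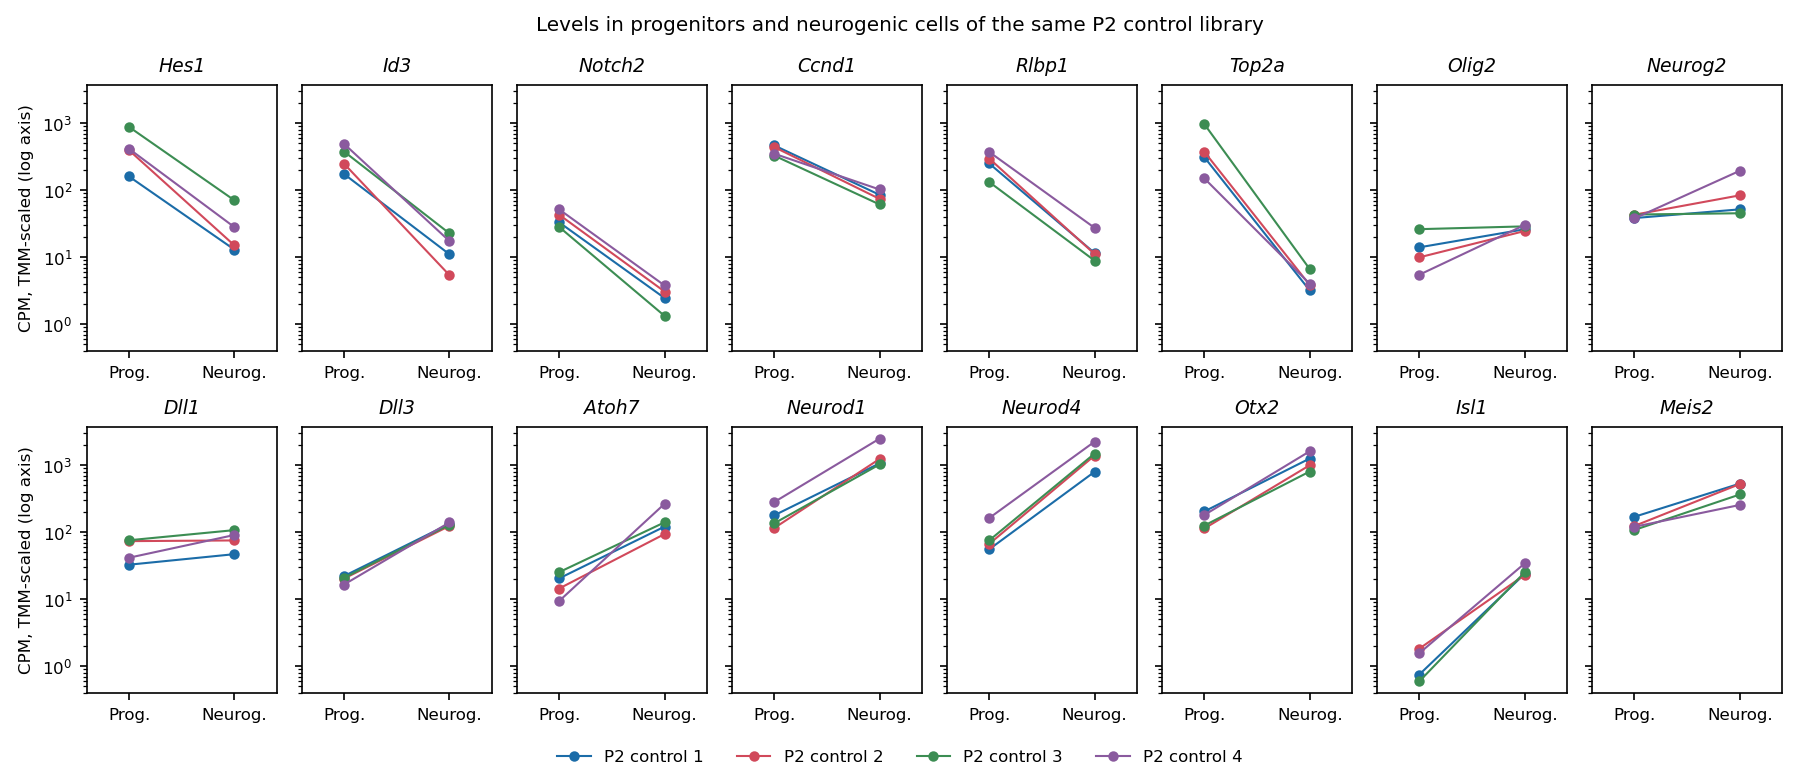
CPM scaled by TMM on a log axis in progenitors (left point) and neurogenic cells (right point) of each P2 control library, 1 line per library. Lines for Hes1, Id3, Notch2 and Top2a fall and those for Neurod4, Neurod1 and Isl1 rise in all 4 libraries, while levels of Dll1 overlap between the types.

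Genes of the short neurogenic phase were mostly higher. Of 21 tested, 16 were higher, 2 lower and 3 not called, with a median of 1.33. Btg2, an antiproliferative gene that marks the last division of neural progenitors, measured 141, 159.6, 121 and 347 CPM in progenitors and 553, 499, 383 and 847 CPM in neurogenic cells, a log2 fold change of 1.64 ± 0.10 (SE, edgeR adjusted p = 1.87e-07). The zinc finger factors St18 (3.46), Myt1 (2.67) and Insm1 (1.33), the neural splicing regulator Srrm4 (2.57) and Gadd45g (2.18) rose with no overlap between types. Mybl1 (2.61) and Mfap4 (3.22) did too. Sox4 rose by 1.05 ± 0.06 (SE, edgeR adjusted p = 1.35e-07), but its relative Sox11 was not called, at -0.05 ± 0.11 (SE, edgeR adjusted p = 0.719). Among the lower 50 percent of cells for cell cycle UMIs, Sox11 was higher in neurogenic cells, at a log2 fold change of 0.37 (edgeR adjusted p = 0.00175). The 2 that fell were Penk (-1.53) and Elavl2 (-0.78).

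Early neuronal genes were mostly higher too: of 19 tested, 13 were higher, 3 lower and 3 not called, with a median of 1.29. The netrin receptor Dcc measured 264, 119, 133 and 91.8 CPM in progenitors and 3676, 2012, 1460.0 and 1684 CPM in neurogenic cells, a log2 fold change of 3.88 ± 0.11 (SE, edgeR adjusted p = 3.05e-09). Tubb3 (2.59) and the synaptic vesicle gene Syt1 (2.10) also rose. The adhesion gene Ncam1 (-1.20) and the chemokine receptor Cxcr4 (-1.77) fell.

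G2 and mitosis genes had the lowest median of the lists. Of 54 G2 and mitosis genes, 52 were lower and 2 not called (Rangap1, -0.17, and Ctcf, -0.02), with a median of -4.90. Of 43 tested S phase genes, 40 were lower and 3 not called, with a median of -2.07. Top2a, the topoisomerase of chromosome condensation, measured 312, 375, 972 and 150.4 CPM in progenitors and 3.19, 3.85, 6.66 and 4.01 CPM in neurogenic cells, a log2 fold change of -6.51 ± 0.18 (SE, edgeR adjusted p = 2.78e-09). Ube2c (-6.60), Cdk1 (-5.43) and Rrm2 (-5.87) behaved alike. The replication licensing gene Mcm6 fell by 2.78, but Mcm7 did not pass the test (-0.01 ± 0.08, edgeR adjusted p = 0.954), nor did Gins2 (-0.14). Progenitor levels differed between libraries. As a mean over cells, summed G2 and mitosis genes took 0.635, 0.57, 0.975 and 0.259 percent of a progenitor's UMIs in controls 1 to 4. In a neurogenic cell they took 0.124, 0.124, 0.107 and 0.128 percent. The neurogenic share was nearly the same in all 4 libraries, and the lowest progenitor share was that of control 4. With control 4 left out, 7262 genes were called in the step, and with control 1 left out 4895.

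Promoters of 3 mitotic genes and of Mcm6 are printed because they carry the elements by which cell cycle genes are known to be grouped. Capitals mark the cell cycle genes homology region (CHR, searched as TTTGAA and its reverse complement) in Top2a (chr11:99024190-99024309, minus strand), Cdk1 (chr10:69352913-69353032, minus strand, 2 matches) and Ube2c (chr2:164769809-164769928, plus strand), and E2F elements (searched as TTTCCCGC or TTTGGCGC on either strand) in Mcm6 (chr1:128359706-128359825, minus strand).
Top2a: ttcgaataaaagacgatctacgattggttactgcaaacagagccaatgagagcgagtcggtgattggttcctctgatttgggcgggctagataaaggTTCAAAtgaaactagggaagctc
Cdk1: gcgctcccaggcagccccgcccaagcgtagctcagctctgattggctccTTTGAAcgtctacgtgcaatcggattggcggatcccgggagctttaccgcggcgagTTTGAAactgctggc
Ube2c: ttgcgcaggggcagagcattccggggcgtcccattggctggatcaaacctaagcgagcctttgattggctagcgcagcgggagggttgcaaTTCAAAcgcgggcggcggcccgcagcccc
Mcm6: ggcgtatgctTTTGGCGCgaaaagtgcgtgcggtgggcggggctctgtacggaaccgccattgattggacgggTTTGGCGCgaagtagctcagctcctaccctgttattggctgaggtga
The CHR was found within 250 bases before the start in 21 of 52 promoters of the G2 and mitosis list (40.4 percent, 47 of 54 genes matched), in 6 of 36 promoters of the S phase list (16.7 percent) and in 16 percent of all promoters. The E2F elements had the reverse pattern, with 9 of 36 S phase promoters (25 percent, 32 of 44 genes matched), 2 of 52 of the G2 and mitosis list (3.85 percent) and 1.30 percent of all promoters. These genes were picked for their matches, and matches were not tested.

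Regulators of cell cycle entry were lower, with exceptions. Of 9 tested G1 cyclins and kinases, 7 were lower, 1 higher and 1 not called, with a median of -1.20. Ccnd1, the cyclin on which retinal progenitors rely, measured 466, 441, 329 and 351 CPM in progenitors and 85.4, 74.2, 61.3 and 103 CPM in neurogenic cells, a log2 fold change of -2.29 ± 0.12 (SE, edgeR adjusted p = 6.12e-08). Cdk4 was not called (0.12 ± 0.06, edgeR adjusted p = 0.104), and Mycn rose from 33.1, 36.996, 34.9 and 30.5 CPM to 54.9, 58.8, 59.96 and 50.6 CPM (log2 fold change 0.73, edgeR adjusted p = 2.07e-05). Cell cycle brakes did not move as a class: of 14, 6 were higher, 5 lower and 3 not called, with a median of 0.11. Cdkn1b, the kinase inhibitor p27, was lower (-0.41), Cdkn1c, its relative p57, higher (0.59), and Cdkn2c fell by 3.05, while Ccng2 rose by 1.33.

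Progenitor identity factors fell, apart from Rax. Of 16, 14 were lower, 1 higher and 1 not called (Nfib, -0.13 ± 0.08, edgeR adjusted p = 0.184), with a median of -1.04; Hes1 and Hes5 are among them. Sox2, which maintains progenitors, measured 167, 108, 116 and 142 CPM in progenitors and 46.98, 16.2, 39.98 and 25.9 CPM in neurogenic cells, a log2 fold change of -2.07 ± 0.15 (SE, edgeR adjusted p = 8.98e-07). Lhx2 fell by 1.94, Zfp36l1 fell by 2.62 and Pax6 fell by 1.01. Rax, an eye field factor with a later part in photoreceptors, measured 256, 231, 245 and 206 CPM and 438, 399, 389.5 and 456 CPM, a log2 fold change of 0.85 ± 0.08 (SE, edgeR adjusted p = 7.60e-06). The radial and glial genes, which Müller glia share with late progenitors, fell further: 14 of 15 tested were lower, with a median of -1.92. Rlbp1, the retinaldehyde-binding protein of glia, measured 251, 297, 133 and 372 CPM in progenitors and 11.5, 11.2, 8.88 and 27.4 CPM in neurogenic cells, a log2 fold change of -4.21 ± 0.14 (SE, edgeR adjusted p = 4.16e-09). Cp (-3.70), Crym (-3.21), Slc1a3 (-2.38) and Glul (-1.21) followed. The 1 exception was Fabp7, a fatty acid-binding protein of radial glia elsewhere in the brain, which rose from 206, 209.8, 293 and 183 CPM to 1852, 2660.5, 2709 and 1122 CPM, a log2 fold change of 3.16 ± 0.14 (SE, edgeR adjusted p = 1.61e-08).

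Genes of growth factor signalling were mostly lower: of 22 tested, 17 were lower, 2 higher (Fgfr2, 0.40, and Tead2, 0.32) and 3 not called, with a median of -1.38. Gli2, an effector of Hedgehog signalling, fell by 2.73, the Wnt inhibitor Sfrp2 fell by 2.59, the FGF response factor Etv1 fell by 2.52, Yap1 fell by 2.34 and Fgf15 fell by 2.25. Temporal identity factors were mixed, with 4 of 20 higher, 10 lower and 6 not called and a median of -0.53. Casz1, a factor that favours mid and late fates, was the largest rise of that list, from 122, 85.2, 47.5 and 107 CPM to 339, 235, 135 and 282 CPM (1.46 ± 0.06 (SE, edgeR adjusted p = 1.79e-08)). The nuclear receptor gene Nr2f1 fell by 0.65 and Nr2f2 was not called (-0.08 ± 0.15, edgeR adjusted p = 0.665).

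Among fate genes, photoreceptor specification factors and the tested bipolar factors were mostly higher. Most tested genes of the rod and cone function list were not called. Of 14 photoreceptor specification factors, 10 were higher, 1 lower (Thrb, -0.48) and 3 not called, with a median of 0.80. Otx2, needed for photoreceptor and bipolar fates, measured 204, 114, 126 and 181 CPM in progenitors and 1258, 999, 805 and 1613 CPM in neurogenic cells, a log2 fold change of 2.90 ± 0.10 (SE, edgeR adjusted p = 5.29e-09). Crx (2.97) and Prdm1 (2.32), which act downstream of Otx2, rose with it, while the rod determinants Nrl (0.34 ± 0.12, edgeR adjusted p = 0.037) and Nr2e3 (0.43 ± 0.10, edgeR adjusted p = 0.00481) rose by little. Of 9 tested genes of rod and cone function, 7 were not called, Sag was higher (0.28) and Gnb1 lower (-0.18). Of the 12 genes of the bipolar list, 6 passed the filter on low counts. All 6 were higher, with a median of 3.23, and Otx2 and Neurod4 are counted here again. A gene can pass that filter through the neurogenic cells alone, as Isl1 did. This count and median are thus a description only. Isl1, a factor of bipolar, ganglion and some amacrine cells, measured 0.752, 1.83, 0.596 and 1.57 CPM in progenitors and 23.99, 23.1, 25.3 and 34.3 CPM in neurogenic cells, and its log2 fold change of 4.68 ± 0.22 (SE, edgeR adjusted p = 3.11e-08) was the largest rise among all genes tested. Lhx4 rose from 5.05, 3.25, 2.09 and 6.13 CPM to 51.3, 48.8, 43.97 and 63.1 CPM, a log2 fold change of 3.56 ± 0.15 (SE, edgeR adjusted p = 1.60e-08).

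Of 13 tested amacrine and horizontal factors, 5 were higher and 8 not called, a smaller called share than the 54.2 percent of all genes tested. Their median was 0.24, and library medians ran from -0.17 in control 3 to 1.32 in control 4. Isl1 and Meis2, described in other paragraphs, are among the 5. Ptf1a, which commits cells to amacrine and horizontal fates, measured 2.44, 1.83, 2.68 and 0.130 CPM and 7.91, 6.15, 26.7 and 1.11 CPM, with overlapping groups, the neurogenic value of control 3 well above the rest and a log2 fold change of 2.22 ± 0.30 (SE, edgeR adjusted p = 9.98e-05). Foxn4, which acts upstream of Ptf1a, was not called (-0.34 ± 0.45, edgeR adjusted p = 0.555): it was lower in neurogenic cells of controls 1, 2 and 3 and higher in control 4. With cells of both types restricted to the lower 50 percent for cell cycle UMIs, Foxn4 was higher in neurogenic cells, at a log2 fold change of 2.43 (edgeR adjusted p = 3.04e-05). Of the endothelial, microglial and pigment cell markers, 4 passed the filter, Cldn5 was higher (1.69) and Mitf lower (-1.40), and Rpe65 was at 0.

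Of the family of the electroporated factors, 9 members were tested in these libraries, which the labels give as carrying no MEIS construct. Among them 2 were higher, 4 lower and 3 not called, a share near that of all genes tested, with a median of -0.09. Meis2 (chr2:115863064-116065839) measured 169.9, 124, 108 and 120.4 CPM in progenitors and 531, 523, 366 and 255 CPM in neurogenic cells, with no overlap and a log2 fold change of 1.64 ± 0.13 (SE, edgeR adjusted p = 1.42e-06). Meis1 (chr11:18879817-19018985) measured 305, 165, 187 and 179 CPM and 283, 120.005, 175 and 111 CPM; it was lower in neurogenic cells of all 4 libraries, but by little, at -0.33 ± 0.10 (SE, edgeR adjusted p = 0.0168). Meis3 rose (0.94), and Pbx4 (-1.59) and Pknox2 (-0.98) fell. The plasmid GFP was not called, at 33871, 12772, 11999.6 and 41306 CPM in progenitors and 43105, 11451, 17433 and 35751 CPM in neurogenic cells (0.13 ± 0.11 (SE, edgeR adjusted p = 0.336)).

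Outside the lists, the 12 largest rises among called genes of at least 5 mean log2 CPM ran from 1810041L15Rik (2.79) to 3110035E14Rik (4.24). They included Clvs1 (4.02), Zmat4 (3.90), Abca4 (3.42), the retinoid transporter of photoreceptor discs, the vascular ligand Angpt1 (3.40), Ankrd33b (3.24), Gem (3.08), the glutamate transporter Slc1a2 (2.99), Gdpd5 (2.98), Glcci1 (2.92) and Wnt5b (2.83). Abca4, for one, measured 11.2, 16.3, 9.83 and 23.2 CPM in progenitors and 109, 174, 167 and 206 CPM in neurogenic cells. Most of these rises differed with age (P2 less P5). Smaller at P2 were those of 3110035E14Rik (-2.22), Clvs1 (-2.57), Abca4, Ankrd33b (-1.64), Slc1a2 (-1.67) and 1810041L15Rik (-2.13). Larger at P2 were those of Gem and Wnt5b (0.57), while those of Zmat4, Angpt1, Gdpd5 and Glcci1 were not called. The difference was -1.92 for Abca4 (edgeR adjusted p = 0.00102), 1.71 for Gem (edgeR adjusted p = 0.0247) and -0.02 for Angpt1 (edgeR adjusted p = 0.992). Of the 12 largest falls, 9 were histone or division genes: Hist1h3b (-7.28), Hist1h3c (-6.32), Hist1h2ab (-5.51), Hist1h1b (-5.10), Hist1h2bn (-4.92), the mitotic kinase gene Pbk (-6.91), the kinetochore genes Spc25 (-5.97) and Spc24 (-5.31), and Pclaf (-5.94), which binds PCNA. The other 3 were the actin-binding gene Tagln2 (-5.84), Rgcc (-5.55) and the sphingosine phosphate receptor S1pr3 (-5.45). Tagln2 measured 178, 201, 258 and 175 CPM in progenitors and 3.67, 2.31, 3.55 and 2.67 CPM in neurogenic cells, an even fall in every library. Its fall differed with age (P2 less P5, -2.91 ± 0.36 (SE, edgeR adjusted p = 5.83e-04)). For Pbk the difference was not called and had a wide error, at -0.94 ± 1.12 (SE, edgeR adjusted p = 0.630). Histone levels were far from even. Hist1h3b, the largest fall of the 12, measured 3.25, 153, 221 and 5.87 CPM in the progenitors of controls 1 to 4. For Hist1h2ab and Hist1h2bn the types overlapped. Hist1h1b measured 108, 719, 2468 and 62.6 CPM in the progenitors of controls 1 to 4. In the cells with fewer cell cycle UMIs Hist1h1b was higher in neurogenic cells, at a log2 fold change of 0.62 (edgeR adjusted p = 0.0205).

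Both types are mixtures of the authors' clusters, and the step looks different from cluster to cluster. Levels by cluster are given as UMIs per 1000000 UMIs of the cluster, as mean ± SD over the 4 P2 control libraries (n = 4), and as a description with no test, since these genes drew the clusters. Progenitors comprised cluster 3 (64.6, 69.8, 46.8 and 92.3 percent of progenitors in controls 1 to 4), where Top2a was low at 4.41 ± 0.950. The rest were clusters 12 and 16, where Top2a was high at 1298 ± 285 and 1182 ± 453. Low Top2a does not tell cells in G1 from cells that left the cycle. Ccnd1 in cluster 3 was 418 ± 104, against 457 ± 133 and 225 ± 86.6 in clusters 12 and 16. The glial gene Rlbp1 was highest in cluster 3, at 356 ± 89.8 against 87.6 ± 29.4 and 50.5 ± 25.02 in clusters 12 and 16, while Glul differed less, at 252 ± 40.6 against 185 ± 29.6 and 214 ± 31.8. Neurogenic cells comprised cluster 11 (21.6 to 27.4 percent) and cluster 4 (72.6 to 78.4 percent). Top2a was low in both, at 5.58 ± 3.94 and 3.96 ± 0.764.

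Proneural genes whose levels overlapped between the types differed between the clusters. Olig2 was near absent from cluster 3 (1.60 ± 0.812) and present in clusters 12 and 16 (34.4 ± 11.5 and 36.7 ± 12.8). It was highest in cluster 11 (62.2 ± 3.08) and lower in cluster 4 (16.8 ± 0.974). Neurog2 followed the same order, at 19.1 ± 4.01, 82.3 ± 36.2, 169 ± 137, 245 ± 154 and 45.6 ± 32.9 in clusters 3, 12, 16, 11 and 4, with control 4 the highest in each.

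Cluster 11 held the features of both types. Its Hes5 level was that of progenitors (1479 ± 629.7, against 1318 ± 614 in cluster 3 and 373 ± 276 in cluster 4), as was Pax6 (310.5 ± 28.3 against 335 ± 39.6 and 113 ± 36.97), and it retained Ccnd1 (277 ± 61.7 against 418 ± 104 and 21.02 ± 3.05). Yet Hes1 was lower there than in cluster 3 (93.1 ± 59.5 against 469 ± 308), though above its level in cluster 4 (11.1 ± 14.3). Otx2 was near its level in cluster 4 (975 ± 283 against 1244 ± 424) and Dll3 was at its highest in cluster 11 (148 ± 11.1). Dll1 was highest there too, at 97.1, 195, 188 and 174 against 34.9, 50.1, 71.7 and 57.3 in cluster 4 and 30.2, 77.3, 61.02 and 39.1 in cluster 3. In the larger cluster 4, Dll1 was thus near its level in cluster 3. Other factors were highest in cluster 4: Atoh7 at 196 ± 102 against 25.6 ± 10.9 in cluster 11, Neurod4 at 1794 ± 744 against 424 ± 136, and Meis2 at 515 ± 187 against 115 ± 55.05. An order in time between the clusters was not tested. For Meis2, cluster 11 was at the level of cluster 3 (135 ± 49.5), and cluster 4 was the highest of the 5 in every library.

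**Figure D3:**
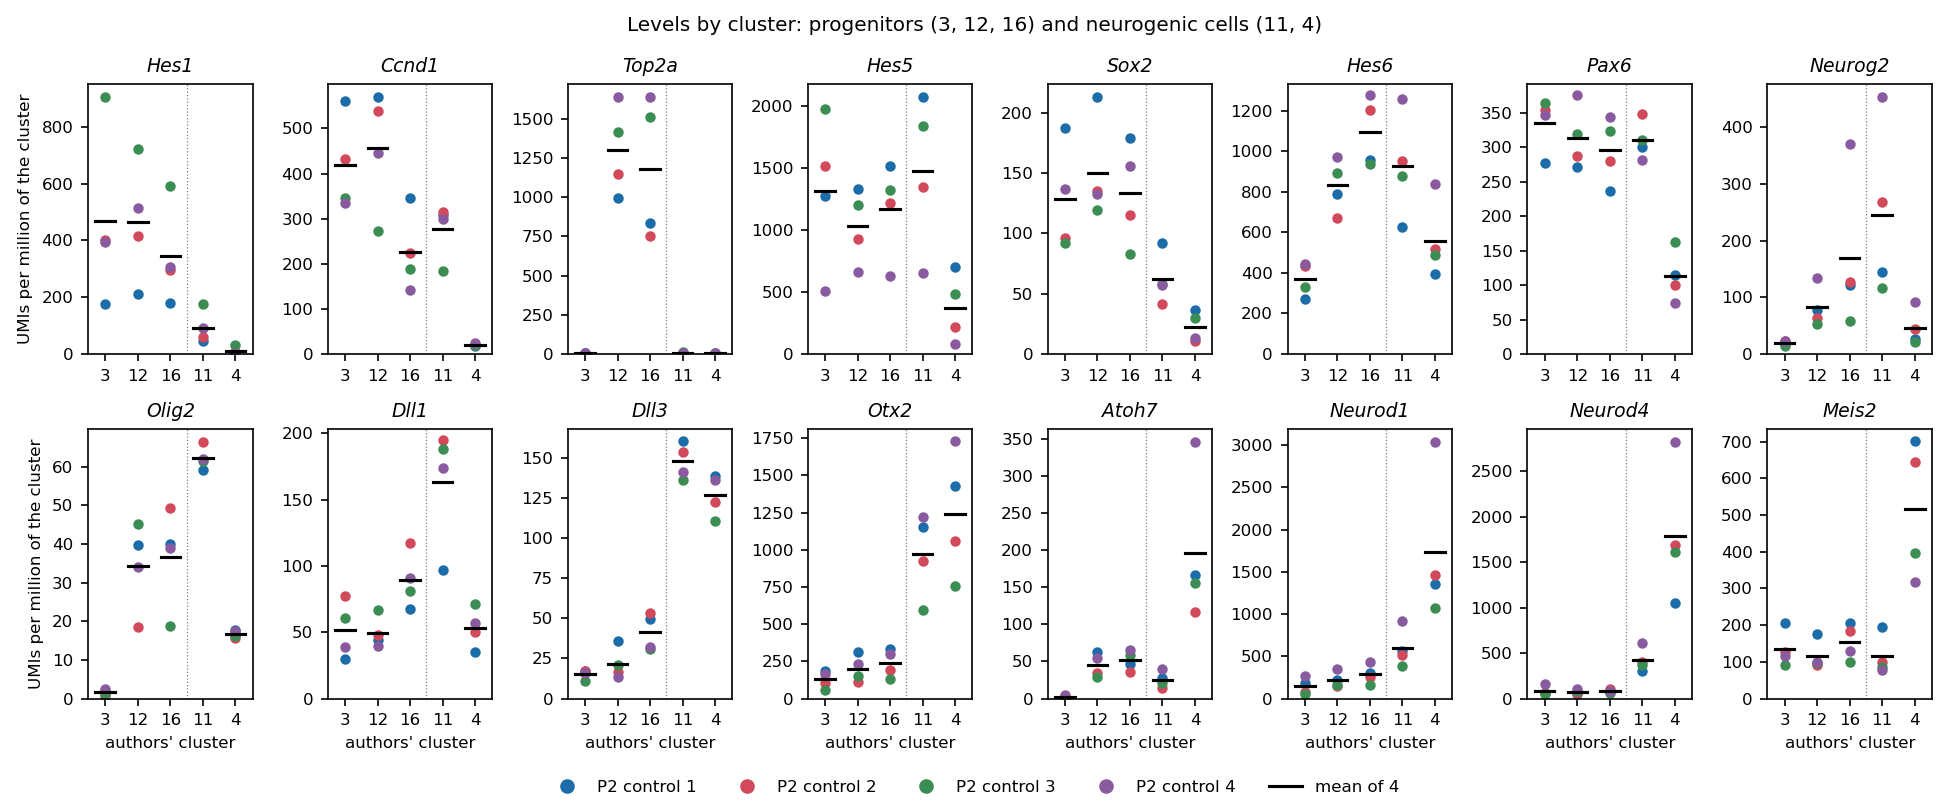
UMIs per 1000000 UMIs in each of the authors' clusters, progenitors (3, 12, 16) left and neurogenic cells (11, 4) right of the dotted line, 1 point per P2 control library, with black bars at the mean of 4. Neurog2, Olig2 and Dll1 peak in cluster 11, Atoh7, Neurod4 and Meis2 in cluster 4, and Top2a averages 1298 and 1182 in clusters 12 and 16 and at most 5.58 in the other 3.

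Shares of cells with a UMI were compared after each cell was thinned to 2000 UMIs, and cells with fewer UMIs were left out. This kept 1061 of 2627 rods in control 2 and 1382 of 2308 in control 3. Of the neurogenic cells of control 2, 382 of 448 were kept. The shares, above all those of rods, thus describe the deeper cells. Shares in rods of the same libraries are set beside them; rods arise from these cells and share several of the genes, so their shares are no background for Neurod4 or Atoh7. With 4 paired libraries an exact sign-flip permutation test cannot give a p below 0.125. Neurod4 was found in 75.4 ± 4.67 percent of neurogenic cells and 8.22 ± 1.61 percent of progenitors (mean ± SD, n = 4), and in 80.4 percent of rods. Hes1 was found in 3.37 ± 1.49 percent of neurogenic cells, 45.3 ± 14.2 percent of progenitors and 0.568 percent of rods. Atoh7 was found in 18.7 ± 5.05 percent of neurogenic cells and 1.96 ± 1.04 percent of progenitors, and in 4.23 percent of rods. Each of these differences had the same sign in 4 of 4 libraries (exact p = 0.125). Neurog2 was found in 11.7 ± 6.34 percent of neurogenic cells, 5.91 ± 0.998 percent of progenitors and 0.497 percent of rods. Top2a was found in 0.719 percent of neurogenic cells, close to the 0.546 percent of rods, and in 23.5 ± 14.9 percent of progenitors. The median UMI counts before thinning were 3938 to 9470 in neurogenic cells and 5503 to 12424.5 in progenitors.

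UMIs of Neurog2 and Atoh7 in the same thinned cell are given as a description. In progenitors, 41.6 ± 13.9 percent of the few cells with an Atoh7 UMI also had a Neurog2 UMI, against 5.26 ± 0.78 percent of those without. In neurogenic cells the shares were 7.30 ± 3.17 percent of cells with an Atoh7 UMI and 12.9 ± 7.78 percent of those without. Among progenitors with a Neurog2 UMI, 28.0 ± 10.4 percent had one for the division marker Mki67, against 13.1 ± 7.57 percent of those without. These shares describe cells of 4 libraries and were not tested. Doublets were kept: Scrublet, a doublet caller, marked 17.5, 9.34 and 6.80 percent of progenitors in controls 1, 3 and 4 and did not work in control 2, and their part in these shares was not tested.

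The same step in P5 controls asked which of these changes differ between the ages. At P5, 1693 progenitors and 1711 neurogenic cells were typed in 4 control libraries, with 195, 376, 982 and 140 progenitors in controls 1 to 4. The ages differed in depth. Median UMIs per progenitor were 24147, 22033, 10925.5 and 23322.5 in P5 controls 1 to 4, against 5503 to 12424.5 at P2. Those per neurogenic cell were 16656, 16284, 7686 and 17277, against 3938 to 9470. There were 69.8, 64.4, 45.7 and 66.1 neurogenic cells per 100 progenitors in P2 controls 1 to 4 and 147, 92.0, 90.3 and 136 in the P5 controls. The ages did not overlap (exact two-sided permutation test, p = 0.0286, the smallest that 4 against 4 can give). The make-up of the types overlapped between ages: cluster 3 held 46.8 to 92.3 percent of progenitors at P2 and 74.1 to 97.1 percent at P5, and cluster 11 held 21.6 to 27.4 percent of neurogenic cells at P2 and 26.8 to 46.0 percent at P5. Each of these differences in make-up missed the threshold, with an exact permutation p of 0.0571, and 3 comparisons of this kind were made. The step of plasmid GFP differed with age: it was 0.10 at P2 and -0.90 at P5, a difference of 1.00 ± 0.23 (SE, edgeR adjusted p = 0.0168). The part of these differences in the gene differences below was not tested.

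Of 13320 genes tested for a difference in the step between ages, 1825 (13.7 percent) were called, 824 (6.19 percent) higher and 1001 (7.52 percent) lower in the P2 step. Without TMM factors the median gene moved by -0.15 on the log2 scale and the split became 485 higher and 1483 lower. The count fell to 823 without P2 control 1, to 1088 without P2 control 2, to 1197 without P2 control 3, to 1146 without P5 control 2 and to 1153 without P5 control 4. Without the library block 204 genes were called, and Hes1, Ccnd1, Btg2, Neurod4, Otx2, Pcp4, Cntnap5a, Zfp36 and GFP were not among them, with edgeR adjusted p from 0.0575 (Ccnd1) to 0.835 (GFP). Values of this comparison are on the scale of the joint fit of both ages, except list medians.

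Rax changed direction between ages. At P2 it measured 267, 234, 245 and 209 CPM in progenitors and 421, 404, 399 and 452 CPM in neurogenic cells. At P5 it measured 267, 278, 210.4 and 191 CPM in progenitors and 168, 151, 198 and 132 CPM in neurogenic cells. Progenitor levels overlapped between the ages and neurogenic levels did not. The step was 0.82 at P2 and -0.54 at P5, and the difference of 1.35 ± 0.17 (SE, edgeR adjusted p = 5.70e-04) was called.

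Bipolar factors had larger steps at P5. The early neuronal genes had a median of 1.29 at P2 and 1.04 at P5, and 11 of 19 differed with age. Medians of other lists were 1.05 at P2 and 2.69 at P5 for the proneural factors, 2.38 and 3.46 for the Notch ligands, 1.33 and 1.71 for the genes of the short neurogenic phase, -2.07 and -1.19 for the S phase genes and -4.90 and -3.20 for the G2 and mitosis genes. Of the last 2 lists, 1 of 43 and 2 of 54 genes differed with age, a smaller share than the 13.7 percent of all genes, and P2 control 4 alone had medians of -0.99 and -2.76. Clusters 12 and 16, where Top2a was high at P2, held 5 and 7 progenitors in P5 control 1 and 7 and 10 in P5 control 2. They held 191 and 63 in P5 control 3 and 2 and 2 in P5 control 4. With so few such cells a difference in these lists was hard to call, so that the small share does not show equal steps. Isl1 measured 23.1, 23.4, 25.9 and 34.03 CPM in neurogenic cells at P2 and 131, 198, 104 and 107 CPM at P5, and its step of 4.63 at P2 and 7.57 at P5 differed by -2.95 ± 0.53 (SE, edgeR adjusted p = 0.00459). Of the 6 tested genes of the bipolar list, 5 differed with age, and the list's median was 3.23 at P2 and 5.66 at P5. The steps of Neurod4 (-2.59), Otx2 (-2.38) and Neurod2 (-4.04) were smaller at P2 as well, with edgeR adjusted p of 0.00876, 0.00881 and 0.00102. For Otx2 this came with lower progenitor levels at P5, 159 ± 46.4 CPM at P2 and 24.7 ± 28.5 CPM at P5 (mean ± SD, n = 4), and with neurogenic levels of 1162 ± 331 and 757 ± 197 CPM. By the size rule, the largest differences in this direction among genes of at least 5 mean log2 CPM were those of Samsn1 (-5.41), Pcp4 (-5.37), Nyap2 (-4.41), St18 (-4.31), Cntnap5a (-3.60) and Sphkap (-3.57). Samsn1 measured 14.6, 13.6, 9.10 and 13.3 CPM in neurogenic cells at P2 and 299.8, 181, 136 and 229 CPM at P5, with at most 13.9 CPM in progenitors of either age. Pcp4, a calmodulin regulator, measured at most 1.77 CPM in neurogenic cells at P2 and 503, 263, 46.1 and 66.4 CPM at P5.

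Some progenitor genes had a more negative step at P2. Of the progenitor identity factors 7 of 16 differed with age, with medians of -1.04 at P2 and -0.98 at P5, and of the radial and glial genes 7 of 15, with medians of -1.92 and -1.96. Hes1 fell by 3.92 at P2 and fell by 1.76 at P5 on the log2 scale, a difference of -2.16 ± 0.41 (SE, edgeR adjusted p = 0.00683); neurogenic cells held 12.5, 15.2, 72.4 and 27.8 CPM at P2 and 58.8, 457, 136 and 223 CPM at P5. Id3 (-2.59, edgeR adjusted p = 0.00176) and Notch2 (-2.06, edgeR adjusted p = 7.91e-04) did likewise. Ccnd1 fell by 2.33 at P2 and fell by 0.65 at P5, a difference of -1.68 ± 0.24 (SE, edgeR adjusted p = 0.00116). The HLH inhibitors as a list had a median of -2.08 at P2 and -1.49 at P5, and 4 of 8 differed with age. In cells of fewer cell cycle UMIs these differences were still called for Hes1, Id3, Notch2 and Ccnd1.

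Btg2 had a larger step at P2. Its P2 step of 1.61 stood against 0.08 at P5 (not called there, edgeR adjusted p = 0.669), a difference of 1.52 ± 0.22 (SE, edgeR adjusted p = 0.00124). Progenitors measured 927, 201, 715 and 429 CPM at P5, against 147, 162, 122 and 352 CPM at P2, and the ages overlapped. The largest differences in this direction by the size rule were those of Galnt18 (3.33), S100a16 (3.30), Adamtsl1 (3.25), Nfkbia (2.31), Zfp36 (2.07) and Tmem176a (1.98). For these 6 genes the 4 P5 progenitor values lay above the 4 P2 values: Adamtsl1 measured 12.5, 9.48, 15.98 and 12.7 CPM in progenitors at P2 and 476, 593, 232 and 406 CPM at P5. Galnt18 measured 16.8, 8.25, 10.2 and 6.87 CPM in progenitors at P2 and 159, 122, 30.9 and 66.3 CPM at P5. Meis2 rose by a like amount at both ages (1.61 and 1.96), with a difference of -0.36 ± 0.32 (SE, edgeR adjusted p = 0.507); Meis1 gave 0.30 ± 0.14 (SE, edgeR adjusted p = 0.17). The plot of both ages shows Rax, Galnt18 and Btg2 above the diagonal.

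**Figure D4:**
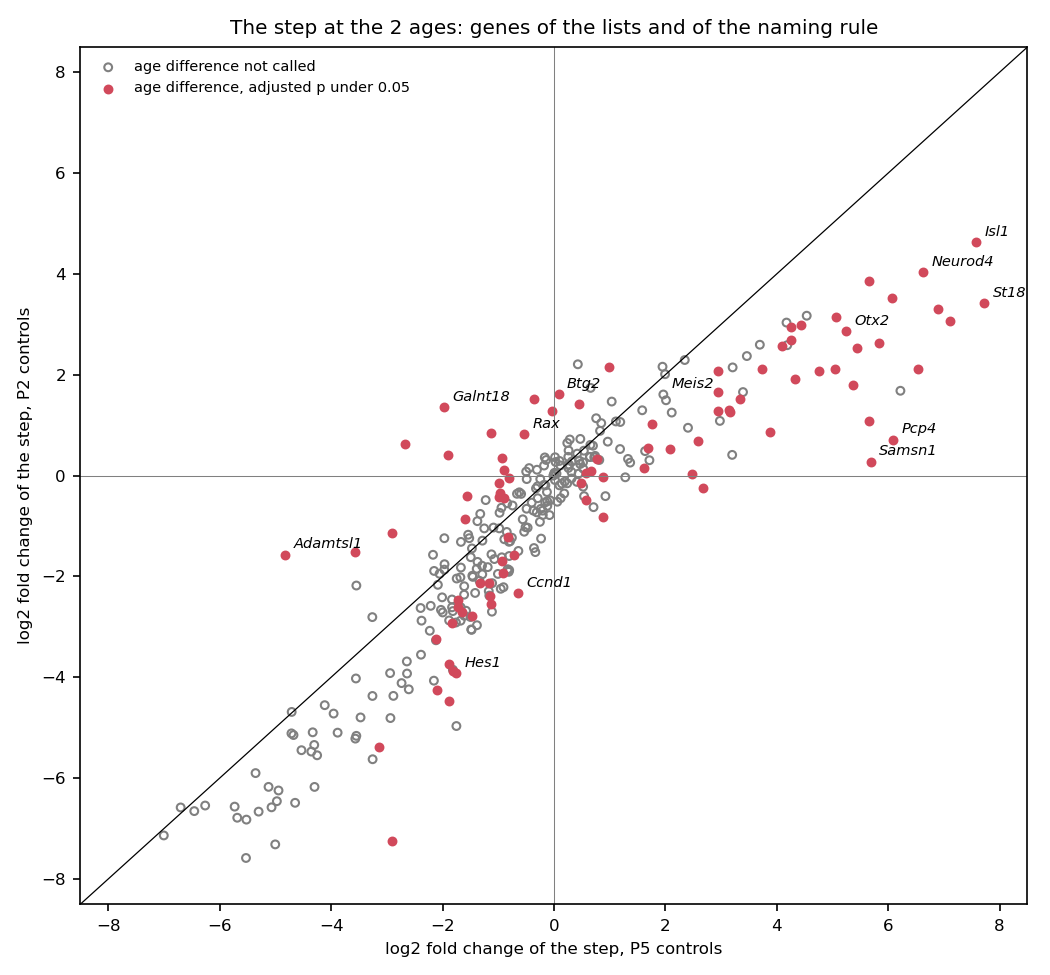
Log2 fold change of the step (neurogenic cells over progenitors) in P5 controls (x axis) and P2 controls (y axis), 1 point per gene reported from the lists or by the size rule; filled points passed an adjusted p of 0.05 for the difference, and the diagonal marks equal steps. Rax lies at -0.54 on the x axis and 0.82 on the y axis, and Rax, Galnt18 and Btg2 lie above the diagonal.

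The step was last compared with that in the 6 P2 libraries that carried a MEIS construct, where 2863 progenitors and 1979 neurogenic cells were typed. Of 14300 genes, 0 were called by edgeR and 0 by DESeq2 (0 percent), with 485 and 200 at an unadjusted p under 0.05. List medians of the step are given as a description. The Notch targets had -2.41 in controls and -2.09 in construct libraries, the proneural factors 1.05 and 1.01, and the G2 and mitosis genes -4.90 and -4.61. Those of the S phase genes were further apart, at -2.07 and -2.80, as were those of the ganglion cell markers (0.52 and 0.97) and of the rod and cone function genes (0.14 and -0.24). This comparison and that of the ages share the P2 controls. The library labelled MEIS2 replicate 2 held 2376875 UMIs, against 24437090 to 27133427 in the other 3 single-construct libraries. With it left out, an alternative added after seeing the data, 103 genes were called by edgeR, 99 of them with a larger step in construct libraries. They included Neurod4 (log2 difference 1.51, edgeR adjusted p = 0.000502), Crx (1.54, adjusted p = 0.000647), Fabp7 (1.84, adjusted p = 0.000342) and Angpt1 (4.27, adjusted p = 0.000741). These 4 were chosen after their values were seen.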

How the data were processed

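The authors deposited UMI counts per gene and cell, with a table of each cell's library, type and cluster and its percent of mitochondrial UMIs; per the submitters' processing notes they used Cell Ranger, Seurat 5 and mm10. The deposited percent values entered no test. Here, counts were summed per library and type (at least 20 cells each), filtered with filterByExpr, scaled by TMM and tested with edgeR 4.0.16 quasi-likelihood in R 4.3.3, with the library as a block because both types come from 1 library; Benjamini-Hochberg adjusted p under 0.05 counted as called. CPM are UMI counts per 1000000, scaled by TMM, and an SE is the log2 fold change over the root of F. Levels by cluster are UMIs per 1000000 UMIs, not scaled by TMM. The scripts were tested on simulated data. The members and gene lists were chosen with earlier results of these data known. Some genes of the lists are not reported here by name, though counts and medians include them. Outside the lists, the text names the 12 largest called changes each way among genes of at least 5 mean log2 CPM with 1 direction in 4 of 4 libraries, and for the age difference the 6 largest each way. Alternatives were DESeq2 1.42.0, no TMM, no filter, no block, at least 50 cells, no Scrublet doublets (scanpy 1.11.5), thinned sums, cells of few cell cycle UMIs, the barcode's library name, and each library left out. Doublets were kept in the main result; Scrublet marked 11.3, 0, 6.75 and 3.01 percent of cells in P2 controls 1 to 4, and in P2 control 2, P5 control 1 (1 of 6292 cells) and P2 MEIS2 replicate 2 (1 of 1625 cells) it did not work. Total counts were 16970756 to 141540352 UMIs per P2 control library, and control 1 weighs most in precision. The 6 P5 libraries with a construct (15824 cells) were not used here. Promoters come from RefSeq (GRCm38.p6) and gene positions from GENCODE M21 on mm10.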

Additional observations from a re-analysis of the deposited data

Results flagged for a closer look

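Of 141 values checked in the 4 P2 control libraries, 10 had 1 library far from the other 3 (a gap to the nearest value above the 95% critical value of Dixon's test, which chance gives in about 1 in 20). The step (log2, neurogenic over progenitor) of Atoh7 was 4.79 in control 4 and 2.46 to 2.69 in the others. That of Dll3 was 3.06 in control 4 and 2.58 to 2.62 in the others. Notch2 gave -4.23 in control 3 against -3.73 to -3.65, Sox4 0.91 against 1.07 to 1.10, and Mitf -0.35 against -1.56 to -1.46. In control 2, Neurl1a gave 0.97 against 1.59 to 1.66 and Ncam1 -1.37 against -1.16 to -1.12. The median of the photoreceptor factors was 1.15 in control 4 and 0.70 to 0.77 elsewhere. The median over the ganglion cell markers, of which 3 were tested, was 1.74 in control 2 and 0.16 to 0.40 elsewhere. The library of control 1 held 141540352 UMIs, against 16970756 to 23712603.

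Genes named only for the P2 step were not counted here, and some of them also differed with age. Among genes named in the age comparison, GFP apart, 22 had a step that differed with age in the interaction test (P2 less P5, log2). Smaller or more negative at P2 were Samsn1 (-5.41), Pcp4 (-5.37), Nyap2 (-4.41), St18 (-4.31), Neurod2 (-4.04), Cntnap5a (-3.60), Sphkap (-3.57), Isl1 (-2.95), Id3 (-2.59), Neurod4 (-2.59), Otx2 (-2.38), Hes1 (-2.16), Notch2 (-2.06) and Ccnd1 (-1.68). Larger at P2 were Galnt18 (3.33), S100a16 (3.30), Adamtsl1 (3.25), Nfkbia (2.31), Zfp36 (2.07), Tmem176a (1.98), Btg2 (1.52) and Rax (1.35).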

How the results depend on the processing

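The count of genes called in the step was 6902. It was 2860 without the library block (1228 higher, 1632 lower) and 2362 with a fold of at least 2 required (833 higher, 1529 lower). In both, more genes were lower than higher, unlike in the main result. The split also turned with DESeq2 (2880 higher, 2990 lower), without Scrublet doublets (3396 higher, 3554 lower) and in most other alternatives. It did not turn without TMM factors (3475 higher, 3429 lower), with at least 50 cells or without control 4 (3798 higher, 3464 lower). With 1 library left out the count was 4895 to 7262 (4895 without control 1). The age difference (1825) gave 204 without the block and 823 to 2647 with 1 library left out. The construct comparison (0) gave 39 with no filter on low counts, 0 without the block, and 0 to 103 with 1 library left out (103 without MEIS2 replicate 2). The pairing of both types in 1 library is by construction. In cells of few cell cycle UMIs the sign turned for Foxn4 (2.43), Hist1h1b (0.62), Cdkn2d (0.60), Pcdh17 (0.38), Sox11 (0.37), Pknox1 (0.37), Pbx3 (0.30), Cdkn1a (0.19) and GFP (-0.20); the cause was not tested, and the S, G2 and mitosis lists were not run there because they chose the cells. Differences in shares of cells moved for Atoh7 (26.8 points unthinned, 10.1 at 1000 UMIs, 16.7 at 2000), Hes1 (-68.3 unthinned, -41.9 at 2000) and Neurod4 (56.6 at 1000, 67.1 at 2000). That of Neurog2 was 5.76 at 2000 and 9.14 unthinned, where 1 library turned sign (-0.398; exact p = 0.25). Of 4507 values of list and named genes in the step under the alternatives, 4293 kept direction and side of the threshold, 170 lost the call, 35 gained one and 9 turned. Of 425 for the age difference, 410 kept both, 14 lost the call and 1 gained one. Low counts limit genes such as Pcp4 and Isl1 in progenitors.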
